A study of Mus musculus with 12 samples.

Results

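The resting transcriptome of splenic natural killer (NK) cell preparations was described from 3 RNA-seq libraries of unchallenged wild-type C57BL/6 mice, out of 12 libraries in the study. The members were taken by their labels alone, as the wild-type libraries made without challenge, numbered replicates 2, 3 and 4. The other 9 libraries, from Listeria-challenged wild-type mice and from unchallenged and challenged Mirc11-/- mice, were not compared here. The cells came from spleen, where antibodies were used to take away other cell types so that NK cells stayed unlabelled (negative selection). The labels call the libraries biological replicates and do not state the age or sex of the mice, or whether each library came from a separate mouse. PolyA RNA was sequenced, and the values are whole-number counts for 50643 listed genes.

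NK cells are innate lymphocytes that kill infected or transformed cells. They carry perforin and granzymes in preformed lytic granules, and they read the balance between activating and inhibitory surface receptors. In mice many of these receptors are C-type lectins, encoded in a cluster of Klr genes on chromosome 6, and several signal through small adaptor proteins such as DAP12 (Tyrobp). The spleen also holds B cells, T cells, macrophages, granulocytes, developing red cells and platelets, and RNA of any of these can be carried along in a negative selection.

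The libraries held 18326988, 19548254 and 19684827 counts in replicates 2, 3 and 4, so that 1 count was worth 0.0508 to 0.0546 CPM (counts per 1000000 counts of the library). At least 1 count was recorded for 25255 genes, and 19513 genes had a count in every library. Before any other result, replicate 4 stood apart in its sex-linked transcripts. Xist, the RNA that silences one X chromosome in female cells, was at 2024, 1738 and 1198 CPM in replicates 2, 3 and 4. Eif2s3y, on the Y chromosome, was at 0, 0 and 41.0 CPM and Ddx3y, also Y-linked, at 0.0546, 0.102 and 34.6 CPM. Kdm5d was at 2.89, 2.61 and 30.8 CPM and Uty at 0.327, 0.256 and 10.6 CPM. The summed CPM of these 4 Y-linked genes was 3.27, 2.97 and 117 in replicates 2, 3 and 4, while Xist in replicate 4 was 63.7% of the mean of replicates 2 and 3. Replicate 4 thus held both Xist and Y-linked RNA, and values without it are given beside the main counts.

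Counts were spread over many genes. By mean CPM over the libraries, 1018 genes held 50% of all counts (1027 without replicate 4) and 5801 held 90%. The top 10 genes held 4.35% of the counts, the top 100 held 17.2% and the top 1000 held 49.6%. Of the top 1000 genes of each library, 935 were shared by every library, as were 94 of the top 100. The most abundant transcript was mt-Co1, a mitochondrially encoded subunit of cytochrome oxidase, at 8485, 7707 and 9068 CPM. Eef1a1, a translation elongation factor, ranked 2 at 8038, 8030.2 and 7835 CPM and differed between the libraries by 1.03-fold. Ptprc, the leukocyte common antigen CD45, ranked 4 at 3569, 3192 and 3559 CPM. Beta-globin (Hbb-bs) ranked 3 and alpha-globin (Hba-a2) ranked 6, so red cell transcripts stood among the most abundant in an NK preparation. The heavy chain constant gene of IgM (Ighm) ranked 14.

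**Figure D1:**
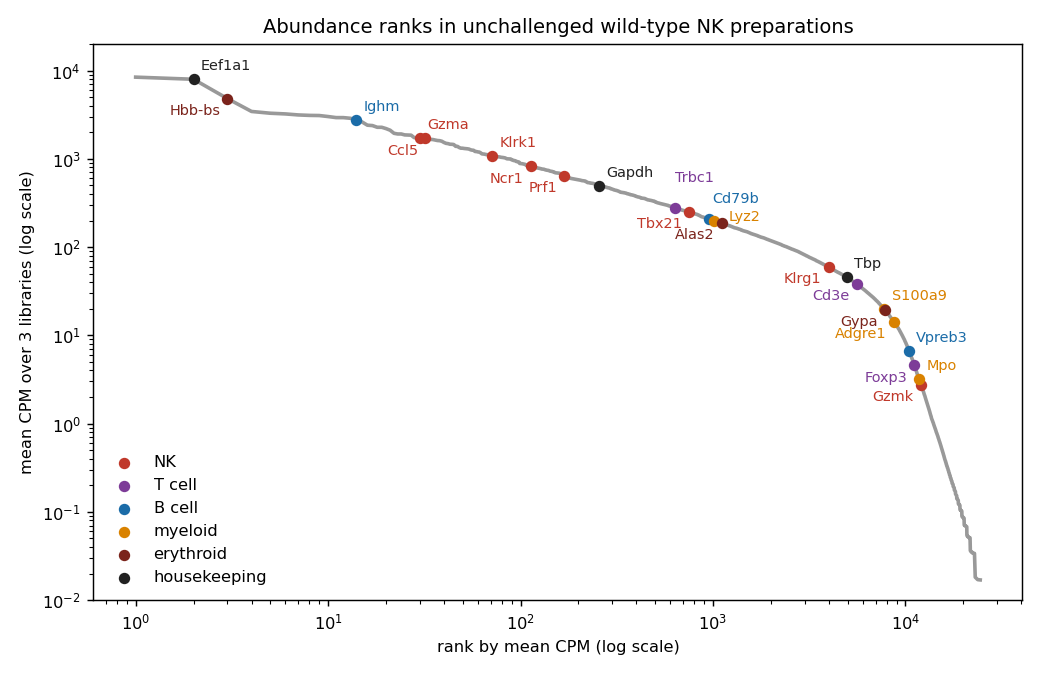
Mean CPM over the 3 libraries (log scale) against rank (log scale) for the genes with a count, with examples of each cell class coloured. The NK genes drawn, a selection, lie from rank 30 (Gzma) to rank 12041 (Gzmk), and Eef1a1, Hbb-bs and Ighm lie above them.

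The spread between the libraries was read in 2 ways, neither a test. The first is the ratio of the highest to the lowest library in CPM, counted as wide at 1.5-fold or more among genes with at least 100 counts on average. The second is a variance ratio, whose mean is 1 where counting error alone separates the libraries. Its median is then below 1. Of 10904 genes at that minimum, 196 reached 1.5-fold, which is 1.8%. The median variance ratio over these genes was 2.47 and the median coefficient of variation (CV) was 5.64%. A fit across 15466 genes gave a common biological CV of 7.34%.

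NK transcripts were abundant. Of 129 genes in the NK lists (activating receptors and adaptors, inhibitory receptors, granule proteins, transcription factors, and maturation and trafficking molecules), 48 ranked in the top 1000 (49 without replicate 4), where 3.96% of genes with a count stand. The 20 genes listed as NK-restricted markers summed to 13057, 12755 and 14312 CPM in replicates 2, 3 and 4. Some of them, such as Il2rb (mean 1739 CPM) and Ccl5 (mean 1703 CPM), can also be expressed by T cells. The sum may therefore hold RNA of other cells. Its mean was 13375 ± 826 CPM (SD, n = 3), or 1.34% of all counts. It was 12906 CPM without replicate 4, and 19 of the 20 genes ranked in the top 1000. The lowest of them was Cd160, a receptor of the immunoglobulin superfamily, at 93.7, 95.4 and 86.3 CPM. None of the 20 differed by 1.5-fold between libraries, which is near the 1.8% of all genes.

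The granule genes were led by Gzma, which encodes granzyme A, a tryptase of the lytic granule, at 1659.5, 1608 and 1886 CPM and rank 30. Replicate 4 was the highest, and replicates 2 and 3 lay close together. Nkg7, a granule membrane protein, was at 712, 757 and 846 CPM, and Prf1, the pore-forming protein perforin, at 576, 619.9 and 727 CPM. Both were lowest in replicate 2 and highest in replicate 4. Gzmb, granzyme B, was at 235, 239 and 266 CPM and rank 765. Levels of different genes were set side by side per kilobase of exon union, the exons of all annotated transcripts of a gene. That length can exceed the transcript present, so a level per kb can be too low for some genes. Gzma stood at 1708 ± 147 CPM per kb (SD, n = 3) and Gzmb at 172 ± 11.8, a ratio of 9.95 ± 0.288. Prf1 stood at 248 ± 30.03 CPM per kb. The granule proteases cathepsin D (Ctsd) and cathepsin W (Ctsw) were at 914, 978 and 1023 CPM and at 444, 475 and 515 CPM. Serpinb9, an inhibitor that protects the killer cell from its own granzyme B, was at 248, 225 and 260.4 CPM.

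The remaining granzymes were scarce or absent at this depth. Gzmm was at 10.4, 10.9 and 10.97 CPM, Gzmk at 3.11, 2.92 and 2.29 CPM and Gzmc at 1.255, 1.94 and 1.22 CPM. Gzmd had 1 count in each of replicates 3 and 4. Gzme, Gzmf, Gzmg and Gzmn had no count in any library, where 3 counts over the group would be 0.0521 CPM. The granzyme family was thus made up almost wholly of Gzma and Gzmb at rest. Of the 27 granule and death ligand genes, 21 reached 100 counts, and 0 of these differed by 1.5-fold between libraries, which is near the 1.8% of all genes. The granule release factors Unc13d and Lyst were at 208, 229 and 224 CPM and 197, 194 and 186 CPM. Fas ligand (Fasl) was at 72.7, 73.3 and 93.2 CPM, and the related death ligand Tnfsf10 at 40.9, 39.7 and 35.6 CPM.

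Promoters are shown because the NK-restricted genes were high together and 10 of 16 held the same short run of letters there. For each gene the 250 bases before the first transcription start listed for it in RefSeq (GRCm38.p6) were searched on both strands. In all 6 motifs were searched in 7 gene lists. RUNX factors, which act in lymphocyte development, bind ACCACA. ETS factors such as Ets1 bind letters like GGAAGT, and GATA factors, of which Gata1 drives red cell genes, bind AGATAA. The T-box core shared by Eomes and T-bet was searched as GGTGTG. Of the general promoter elements, the TATA box was searched as TATAAA, and the CACC box, bound by Klf factors, as CCACCC. The RUNX, T-box and CACC letters can overlap in part. The search was made after the levels were seen. It was first run on 300 bases, from 250 before to 50 after the start, and was then cut to the bases before the start once those results were known.

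Of the 20 NK-restricted genes, 16 were in the promoter table, and 10 of these (62.5%) held the RUNX letters, against 14.2% of 27025 promoters. In the 300-base window the shares were 62.5% and 16.9%. The other motifs were nearer to their share over all promoters. The ETS and T-box letters were each in 3 of 16 (18.75%), against 19.99% and 16.2% of all promoters, and the GATA letters in 1 of 16 (6.25%, against 10.3%). The TATA letters were in 4 of 16 (25.0%, against 12.97%) and the CACC letters in 5 of 16 (31.25%, against 27.7%). Of 18 erythroid promoters in the table, 7 (38.9%) held GATA letters and 11 (61.1%) CACC letters, while 4 (22.2%) held RUNX letters. High shares were not limited to these lists, as ETS letters were in 11 of 17 neutrophil promoters (64.7%). The NK promoters had a median GC content of 42.8%, and all promoters 52.0%. These are shares of letters in a window, given with no test, and are no measure of binding.

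The NK promoters without the RUNX letters were those of Klra4, Klra7, Klra8, Klra9, Eomes and Txk, and Klri2, Klrd1, Ccl5 and Il2rb had no entry. The promoters below were picked by gene and are not a random draw: 4 of the 10 with the letters, Eomes as one of the 6 without them, and beta-globin for contrast. Capitals mark RUNX letters on either strand, and in Hbb-bs they mark GATA letters. On GRCm38.p6, Ncr1 lies at chr7:4337465-4337714 (plus strand), Prf1 at chr10:61297586-61297835 (plus), Gzma at chr13:113100982-113101231 (minus), Klrk1 at chr6:129623865-129624114 (minus), Eomes at chr9:118477939-118478188 (plus) and Hbb-bs at chr7:103827929-103828178 (minus).
Ncr1: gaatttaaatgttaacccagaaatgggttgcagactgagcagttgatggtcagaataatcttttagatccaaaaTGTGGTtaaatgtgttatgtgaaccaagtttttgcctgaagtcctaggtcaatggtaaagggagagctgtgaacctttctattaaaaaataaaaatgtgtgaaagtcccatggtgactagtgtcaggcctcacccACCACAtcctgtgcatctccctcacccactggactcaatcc
Prf1: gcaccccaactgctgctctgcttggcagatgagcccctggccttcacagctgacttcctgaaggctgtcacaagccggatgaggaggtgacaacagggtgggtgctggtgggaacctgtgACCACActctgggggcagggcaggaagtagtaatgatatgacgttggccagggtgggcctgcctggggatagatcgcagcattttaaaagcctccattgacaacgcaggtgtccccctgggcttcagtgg
Gzma: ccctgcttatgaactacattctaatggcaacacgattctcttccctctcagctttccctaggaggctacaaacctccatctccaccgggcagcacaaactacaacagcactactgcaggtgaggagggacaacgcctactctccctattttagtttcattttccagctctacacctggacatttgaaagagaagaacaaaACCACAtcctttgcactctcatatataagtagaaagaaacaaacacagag
Klrk1: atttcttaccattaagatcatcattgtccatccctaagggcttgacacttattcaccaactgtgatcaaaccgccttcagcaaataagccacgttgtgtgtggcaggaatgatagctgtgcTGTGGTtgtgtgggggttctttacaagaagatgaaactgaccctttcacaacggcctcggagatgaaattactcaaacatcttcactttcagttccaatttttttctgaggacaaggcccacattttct
Eomes: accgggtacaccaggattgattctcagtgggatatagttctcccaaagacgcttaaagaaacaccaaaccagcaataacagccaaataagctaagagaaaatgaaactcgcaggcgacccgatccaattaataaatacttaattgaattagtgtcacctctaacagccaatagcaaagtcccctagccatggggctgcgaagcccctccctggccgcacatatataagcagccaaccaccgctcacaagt
Hbb-bs: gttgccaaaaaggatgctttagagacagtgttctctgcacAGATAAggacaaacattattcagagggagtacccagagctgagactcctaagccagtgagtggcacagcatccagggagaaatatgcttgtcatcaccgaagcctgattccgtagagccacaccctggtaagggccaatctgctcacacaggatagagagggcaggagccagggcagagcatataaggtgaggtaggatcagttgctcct

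In Ncr1, which has 2 starts in the table, the letters occurred at 2 places, with first bases 41 and 176 bases before the start used. In Gzma they began 50 bases before it, in Klrk1 129 bases and in Prf1 130 bases before it. The GATA letters in Hbb-bs began 210 bases before the start.

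Among the activating receptors, Klrk1 (NKG2D, which binds stress-induced ligands) was at 1102, 1016 and 1143 CPM and rank 71. Klrb1c, which encodes NK1.1, was at 934, 922 and 1011 CPM. Ncr1, the natural cytotoxicity receptor NKp46 and a defining NK gene, was at 788, 792 and 879.9 CPM and rank 113. The libraries differed by 1.13-fold in Klrk1, 1.10-fold in Klrb1c and 1.12-fold in Ncr1. Per kb, Ncr1 stood at 532 ± 33.7, Klra8 at 416 ± 51.0, Klrb1c at 323 ± 16.3 and Klrk1 at 151 ± 9.06 CPM. The exon union was 7183 bases for Klrk1 and 1540 for Ncr1, so their order per kb depends on that length. Klra8, which encodes Ly49H and recognises a cytomegalovirus protein, was at 480.1, 436 and 555 CPM. Klra4 (Ly49D), also activating, was at 371, 334 and 406 CPM. Both were lowest in replicate 3 and highest in replicate 4. Klrc2 (NKG2C) varied more, at 805, 561 and 713 CPM, a range of 1.43-fold.

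Several further lectin receptor genes, inhibitory ones among them, were also lowest in replicate 3. Klrd1 (CD94), the partner chain of the NKG2 receptors, was at 419, 326 and 416 CPM. Klrc1 (NKG2A, inhibitory) was at 342, 243 and 317 CPM, a range of 1.41-fold, and Klra9 (Ly49I) at 255, 211 and 265 CPM. In each of these replicate 3 was the lowest. Klri2 was at 565, 458 and 538 CPM, Klre1 at 338, 291 and 329 CPM and Klra7 (Ly49G) at 262, 252 and 274 CPM. Klrg1, a marker of mature NK cells, was nearly the same in every library, at 58.4, 58.5 and 60.6 CPM. Further down, Klra3 (Ly49C) was at 78.1, 65.5 and 95.5 CPM, Klra1 (Ly49A) at 83.7, 69.5 and 72.6 CPM and Klra10 at 28.4, 24.04 and 28.8 CPM. Klra6 was at 22.3, 19.0 and 19.7 CPM and Klra5 at 8.35, 7.52 and 6.91 CPM.

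Over the Klr family, 23 of 26 genes reached 100 counts, and replicate 3 was the lowest library in 20 of these 23 and the highest in 0. Over all 10904 genes at that minimum, replicate 3 was the lowest in 30.6% and the highest in 37.1%. The family's summed CPM was 6602, 5722 and 6701. The 3 genes under 100 counts were Klra2 at 2.40, 1.74 and 2.29 CPM, Klra17 at 1.91, 1.38 and 1.57 CPM and Klrg2 at 0.109, 0.256 and 0.203 CPM. The NKR-P1 genes Klrb1f, Klrb1b and Klrb1a averaged 158 ± 3.76, 125 ± 7.76 and 87.0 ± 3.08 CPM, while Klrb1 and Klri1 averaged 11.9 ± 0.981 and 10.1 ± 0.196 CPM, and Klrc3 45.4 ± 0.707 CPM. Klr transcripts are close in sequence, and how reads were divided among them was not tested. The family's transcripts had a median GC content of 40.2%, against 49.1% over all genes, and replicate 3 was low in GC-poor transcripts in general. In the lowest GC quintile of genes the median log2 ratio of library to mean CPM was 0.10, -0.08 and -0.02 in replicates 2, 3 and 4, and in the highest quintile it was -0.07, 0.05 and 0.01. The part of GC content in the Klr order was not tested.

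Among adaptors and signalling genes, Tyrobp (DAP12) was at 486, 524 and 595 CPM and Fcer1g, the Fc receptor gamma chain, at 335, 346 and 387 CPM. Hcst (DAP10), which serves NKG2D, was at 63.0, 70.6 and 81.4 CPM and Cd247 (CD3 zeta) at 159.8, 159.5 and 166 CPM. Per kb, the ratio of Tyrobp to Hcst was 8.09 ± 0.231 (SD, n = 3). The kinases Fyn, Lck and Syk were at 505, 514 and 560.4, at 501, 514 and 542 and at 448, 469.7 and 457 CPM. The 17 signalling genes summed to 4252, 4368 and 4413 CPM, a CV of 1.91%.

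Of the transcription factors, Ets1 was the most abundant by CPM, at 1122, 1101 and 1126 and rank 67, a range of 1.02-fold. Ikzf1 (Ikaros) was at 704, 685 and 703 CPM, and Id2, which holds E proteins in check in innate lymphocytes, at 473, 429 and 472 CPM. The T-box factors that specify NK cells, Eomes and Tbx21 (T-bet), were at 394, 383 and 445 CPM and 236, 251 and 263 CPM. Per kb the pair stood at 98.05 ± 7.94 and 100.4 ± 5.51 CPM, a ratio of 0.977 ± 0.0541. The SD covers the spread between libraries and not the choice of length. By CPM Eomes was the higher in every library, so their near-equality per kb depends on the exon-union lengths. Klf2, which keeps lymphocytes quiescent and recirculating, was at 285, 308 and 352 CPM and Tcf7 (TCF-1) at 336, 348 and 342 CPM. Runx3, a factor of NK maturation, was at 206, 219 and 228 CPM and Nfil3, needed early in NK development, at 28.7, 30.8 and 34.6 CPM. Gata3 was at 49.2, 50.6 and 51.4 CPM and Tox2 at 1.86, 1.43 and 0.965 CPM. Of the 29 factors, 12 ranked in the top 1000, where 3.96% of genes with a count stand. Of the 28 that reached 100 counts, 0 differed by 1.5-fold, which is near the 1.8% of all genes.

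**Figure D2:**
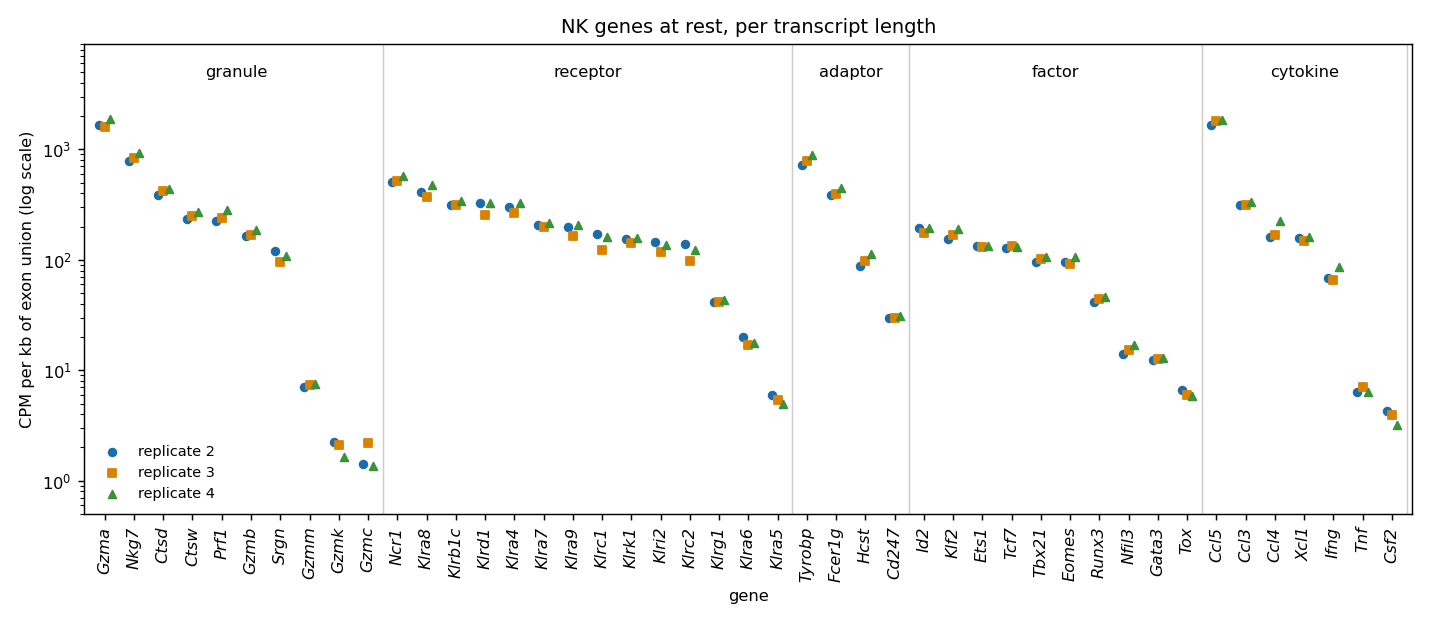
CPM per kb of exon union (log scale) in each of the 3 libraries (1 symbol per replicate) for NK genes grouped by role. Ccl5 and Gzma are the highest, and Gzmk (1.99 CPM per kb) and Gzmc (1.65) the lowest.

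Adhesion and trafficking genes were led by the integrins. Itga4 was at 2022, 1778 and 1936 CPM, Itgal (the LFA-1 alpha chain) at 1576, 1694 and 1709 CPM and Itgb2, its beta chain, at 1309, 1395 and 1451 CPM. Maturation of mouse NK cells is commonly read from CD27 and CD11b (Itgam). Itgam was at 516, 507 and 564 CPM and Cd27 at 115, 122 and 128 CPM, a ratio per kb of 2.01 ± 0.086. A second row of the table, also named Itgam, held 21.2, 28.9 and 28.8 CPM and was not added. Itga2, which encodes the NK marker CD49b, was at 179.9, 181 and 198 CPM. Itga1, which encodes the tissue-resident marker CD49a, was at 11.02, 10.9 and 7.57 CPM.

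The sphingosine-1-phosphate receptors guide exit from tissues. S1pr5, the form found on mature NK cells, was at 187, 190.5 and 221 CPM, S1pr4 at 136, 157 and 164 CPM and S1pr1 at 149, 145 and 154 CPM. S1pr2 was at 19.8, 25.5 and 22.5 CPM and S1pr3 at 9.39, 9.77 and 9.55 CPM. Per kb the order was S1pr5 (79.8 ± 7.46), S1pr4 (63.8 ± 6.11), S1pr1 (49.0 ± 1.40), S1pr2 (2.84 ± 0.359) and S1pr3 (2.14 ± 0.0433). Of the chemokine receptors, Ccr2 was the highest by CPM, at 509.7, 443 and 520.4. Cxcr3 was at 84.2, 94.5 and 95.0 CPM and Cx3cr1, a marker of late maturation, at 37.9, 36.4 and 37.8 CPM.

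Cytokine receptors included the chains by which interleukin 15, the survival factor of NK cells, is read. Il2rb was at 1626, 1746 and 1844 CPM (rank 28) and Il2rg, the common gamma chain, at 466, 481 and 475 CPM. Il2ra, the high-affinity interleukin 2 chain, was at 10.4, 11.7 and 9.14 CPM, a ratio of Il2rb to Il2ra per kb of 225 ± 38.1. The interleukin 18 receptor chains Il18rap and Il18r1 were at 993, 976 and 1070.5 and at 531, 522 and 558 CPM. The interleukin 12 receptor chains were lower, with Il12rb2 at 127, 128 and 131 CPM and Il12rb1 at 43.1, 51.5 and 45.4 CPM.

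Among secreted factors the chemokine Ccl5 was the highest. It was at 1600.4, 1735 and 1773 CPM, rank 32 by CPM and 13 per kb. Ccl3 was at 239, 240.1 and 255 CPM, Ccl4 at 105, 112 and 148 CPM and Xcl1, which attracts dendritic cells, at 81.8, 78.2 and 84.3 CPM. Ifng, interferon gamma, was at 89.2, 84.8 and 112 CPM. Ccl4 and Ifng were both highest in replicate 4, while Ccl3 and Xcl1 differed by 1.07-fold and 1.08-fold. Tnf was at 10.5, 11.6 and 10.3 CPM and Csf2 at 3.44, 3.12 and 2.54 CPM. Il22 had no count in any library, Il17a had 1 count, in replicate 4, and Il2 and Il10 lay below 1 CPM.

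Transcripts of other cells were measured in the same libraries. In bulk RNA, fewer cells of a type and less RNA per cell cannot be told apart, so the levels below are not cell shares. B cell genes were the most abundant of the other lymphoid lists, with 6586, 6907 and 5807 CPM over 22 genes. Ighm was at 2859, 3046 and 2441 CPM, Igkc, the kappa light chain constant gene, at 894, 957 and 774 CPM and Ighd at 298, 292 and 263 CPM. Cd79a, a signalling chain of the B cell receptor, was at 244, 268 and 233 CPM. Replicate 4 was the lowest library in 20 of the 22 genes, where it is the lowest in 33.8% of all genes at the count minimum. The plasma cell list summed to 802, 789 and 657 CPM. Jchain, which joins secreted antibody units, was at 218, 178 and 153 CPM.

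T cell genes gave 1243, 1292 and 1246 CPM over 23 genes. A large part came from constant segments of the receptor genes, with Trbc1 at 265, 282 and 294 CPM, Trbc2 at 114, 123 and 111 CPM and Trdc at 111, 109 and 125 CPM. Trac, the alpha chain constant gene, was lower, at 39.5, 41.9 and 37.9 CPM, and the ratio of Trbc1 to Trac per kb was 8.82 ± 0.744 (SD, n = 3). Which cells gave these constant segment transcripts cannot be told from bulk RNA, so they need not all be from T cells. How reads were divided between Trbc1 and Trbc2 was not tested. Thy1, which NK cells can also carry, was at 192, 212 and 197 CPM. The CD3 chains Cd3d, Cd3g and Cd3e were at 49.1, 50.8 and 43.5, at 48.6, 48.4 and 45.1 and at 36.4, 42.4 and 35.9 CPM. The ratio of Ncr1 to Cd3e per kb was 57.3 ± 7.70 (SD, n = 3). Cd4 and Cd8a were at 26.7, 29.0 and 25.3 CPM and at 26.2, 25.6 and 25.6 CPM. Foxp3, the factor of regulatory T cells, was at 4.20, 5.12 and 4.42 CPM. The 14 genes listed for other innate lymphoid cells summed to 184, 201 and 185 CPM, and 11 of them had a count in every library. Much of this sum came from Klrg1, given above as an NK gene, and Cxcr5, a chemokine receptor that B cells also carry, at 53.7, 64.8 and 53.5 CPM. Il1rl1, the interleukin 33 receptor, was at 10.3, 9.57 and 8.89 CPM and Il17rb, the interleukin 25 receptor, at 6.55, 6.14 and 5.79 CPM. Areg and Il22 had no count.

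The monocyte and macrophage list was below the B cell and T cell lists in summed CPM. Its 24 genes summed to 1010.0, 1018 and 915 CPM, and 0 of them ranked in the top 1000, where 3.96% of genes with a count stand. Without the receptor constant genes, however, the T cell list summed to 662, 687 and 637 CPM, below the monocyte and macrophage list. Lyz2 (lysozyme) was at 197, 212 and 190.2 CPM, Csf1r, the receptor that sustains macrophages, at 71.3, 76.5 and 64.5 CPM and Ctss (cathepsin S) at 126, 128 and 121 CPM. Replicate 4 was the lowest library in 15 of 19 of these genes with 100 counts or more, and in 33.8% of all genes at that minimum. Adgre1, which encodes the macrophage marker F4/80, was at 15.4, 13.5 and 14.1 CPM. Neutrophil genes were near the bottom of the lists, with 104, 100.4 and 99.9 CPM over 18 genes. S100a9, a calcium-binding protein of neutrophils, was at 21.1, 19.6 and 18.7 CPM, and Ly6g, their surface marker, had 1, 4 and 6 counts. The mast cell, basophil and eosinophil genes summed to 112, 118 and 110.3 CPM.

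The dendritic cell list summed to 4233, 4530.0 and 4253 CPM, most of it from MHC class II genes that B cells also express. Cd74, the class II invariant chain, was at 1489, 1656 and 1448 CPM, and H2-Aa at 587, 601 and 558 CPM. Itgax (CD11c), which NK cells also express, was at 766, 813 and 828 CPM. Of genes of narrower expression, Siglech, of plasmacytoid cells, was at 18.8, 18.7 and 23.3 CPM and Xcr1, of cross-presenting dendritic cells, at 2.07, 1.69 and 1.93 CPM.

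The erythroid list was close to the NK-restricted list in summed CPM and above it per kb. The 25 erythroid genes found summed to 12479, 14434 and 12796 CPM, of which the 4 globin genes gave 11297, 13248 and 11828 CPM. Hbb-bs, the main adult beta-globin, was at 4465, 5195 and 4766 CPM and Hbb-bt at 1158, 1290.0 and 1177 CPM. Hba-a1 and Hba-a2, near-identical alpha-globin genes whose split of reads is uncertain, were at 2725, 3172 and 2749 and at 2949, 3591 and 3136 CPM. Per kb the erythroid list stood at 16768 ± 1383 CPM (SD, n = 3) and the NK-restricted list at 8108 ± 534 CPM. Each of the 4 globins was lowest in replicate 2 and highest in replicate 3. The other 21 erythroid genes followed another order, since each of the 21 was lowest in replicate 4 (33.8% of all genes). Their sum was 1182, 1187 and 967 CPM. Alas2, the first enzyme of haem synthesis in red cells, was at 186, 204 and 171 CPM and Slc4a1, the anion exchanger band 3, at 148, 158 and 108 CPM. Trim10, at 15.2, 13.7 and 9.75 CPM, was the 1 erythroid gene of 25 with a 1.5-fold range (1.8% of all genes).

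Platelet and megakaryocyte genes were lowest in replicate 4 in each of 15 genes and highest in replicate 3 in 12. Over all genes at the count minimum, replicate 4 was the lowest in 33.8% and replicate 3 the highest in 37.1%. Their sum was 861, 949 and 702 CPM. Itga2b, the alpha chain of the platelet fibrinogen receptor, was at 183, 221 and 153 CPM and Ppbp, a platelet chemokine, at 147, 132 and 105 CPM. Pancreatic acinar genes, which encode digestive enzymes, were also detected, with a sum of 901, 1085 and 800.4 CPM. Replicate 4 was the lowest library in 13 of the 14 acinar genes with 100 counts or more, and replicate 3 the highest in 13, to be read against the same shares. Amy2a5, pancreatic amylase, was at 113, 217 and 140.5 CPM, and Ctrb1, a chymotrypsinogen, at 116, 139 and 102 CPM. The amylase genes Amy2a2, Amy2a3 and Amy2a4, which are not in the list, had identical counts in another order. Each was at 136, 95.3 and 83.7 CPM, highest in replicate 2. How reads were divided among the amylase genes was not tested, so the order of Amy2a5 alone, and its part in the sum, are uncertain. Stromal and endothelial genes summed to 207, 210.0 and 187 CPM, most of it from Pecam1, which leukocytes and platelets also express, at 162, 163 and 139.8 CPM.

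**Figure D3:**
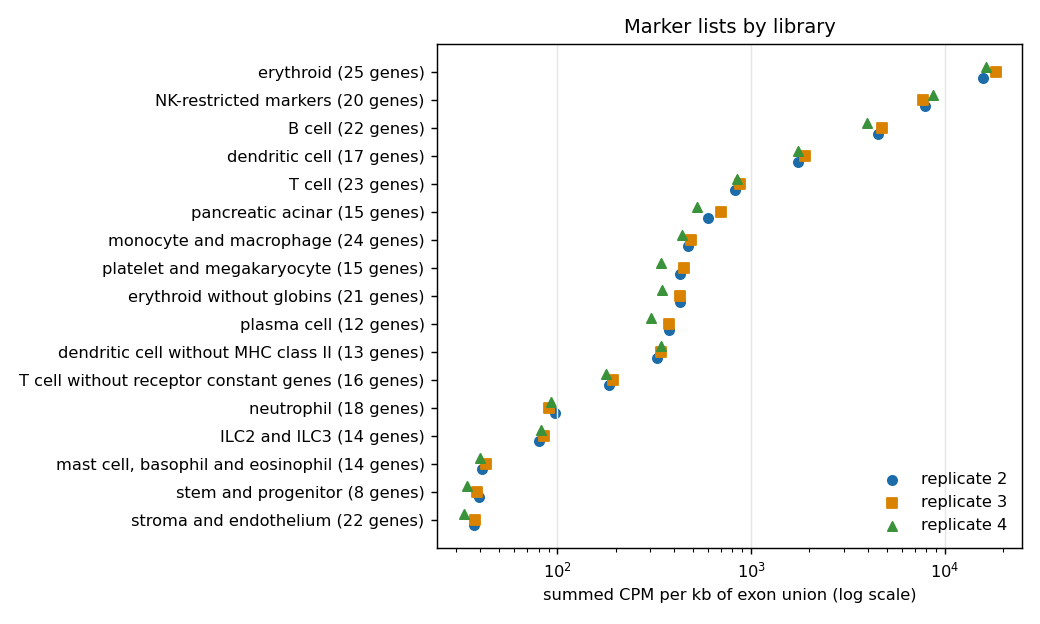
Summed CPM per kb of exon union (log scale) of each marker list in the 3 libraries, 1 symbol per replicate, with the number of genes in parentheses. Erythroid and NK-restricted lists are the highest, and the erythroid list without globins lies near the platelet list.

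Housekeeping genes were read for the spread in RNA that is common to most cells. The widest range among the 28 was 1.38-fold, and 0 reached 1.5-fold, which is near the 1.8% of all genes. The 28 genes summed to 33448, 34629 and 34183 CPM and 22 of them ranked in the top 1000 (3.96% of genes with a count). Ppia (cyclophilin A) was at 648, 660.4 and 668 CPM, Polr2a, the largest subunit of RNA polymerase II, at 531, 552 and 529 CPM and Pgk1 at 133, 127 and 129 CPM. These differed by 1.03, 1.04 and 1.04-fold between the highest and lowest library. Some common reference genes were less steady. Actb was at 2753, 3323 and 3201 CPM, a range of 1.21-fold, and B2m at 2065, 1774 and 1895 CPM, a range of 1.16-fold. Hprt was at 75.8, 65.9 and 66.4 CPM and Tbp at 48.2, 42.0 and 45.8 CPM, and Gapdh, often used as a reference, was at 487, 523 and 483 CPM.

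Ribosomal protein genes held 5.02% of all counts, at 49252, 51344 and 50096 CPM over 89 genes. Replicate 3 was the highest library in 53 of the 82 that reached 100 counts, and in 37.1% of all genes at that minimum. MHC class I genes were abundant, with H2-K1 at 3000.3, 3253 and 3169.6 CPM and H2-D1 at 2426, 2699.8 and 2728 CPM. Among interferon-stimulated genes, Irf7 was at 102, 111 and 111 CPM and Isg15 at 14.5, 14.3 and 15.4 CPM. The 26 genes of that list summed to 1724, 1734 and 1699 CPM, a CV of 1.04%. The glycolytic genes summed to 3257, 3452 and 3321 CPM.

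Cell cycle genes were lowest in replicate 4 in 29 of 33 genes, against 33.8% of all genes at the count minimum. Mki67, a marker of cycling cells, was at 233, 239 and 186 CPM and Top2a, a topoisomerase of dividing cells, at 116, 110.5 and 84.4 CPM. Of these 33 genes, 5 had a 1.5-fold range (15.2%, against 1.8% of all genes). Immediate early genes, which cells switch on quickly after a stimulus, went the other way. Replicate 4 was the highest library in 18 of 23, where it is the highest in 25.5% of all genes. Junb was at 397, 466 and 597 CPM, Ier2 at 175, 194 and 248 CPM and Nr4a2 at 12.8, 12.6 and 26.2 CPM. Fos, at 338, 332 and 356 CPM, was nearly level. The summed CPM of the list was 3609.9, 3762 and 4339.5.

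**Figure D4:**
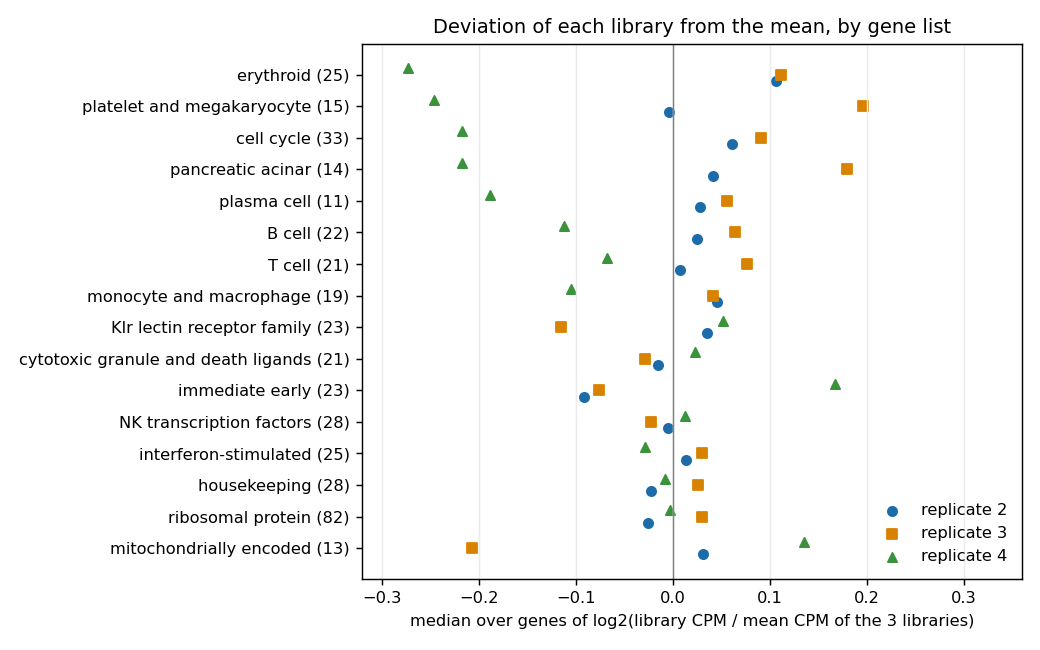
Median over the genes of each list, at 100 counts or more (number in parentheses), of log2 of library CPM over the mean of the 3 libraries. Replicate 4 lies lowest in the erythroid, platelet, cell cycle, acinar and B cell lists and highest in the immediate early list, and replicate 3 lies lowest in the Klr family and the mitochondrial genes.

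The order of the libraries over the lists was compared by medians. The median log2 ratio of library to mean CPM over all genes at the count minimum was 0.00, 0.01 and -0.01 in replicates 2, 3 and 4. For the erythroid list it was 0.11, 0.11 and -0.27, for the platelet list 0.00, 0.20 and -0.25 and for the cell cycle list 0.06, 0.09 and -0.22. For the immediate early list it was -0.09, -0.08 and 0.17, and for the Klr family 0.03, -0.12 and 0.05. For the housekeeping list it was -0.02, 0.03 and -0.01. Replicate 4 was thus the farthest from the mean in the erythroid, platelet, cell cycle and immediate early lists, and replicate 3 in the Klr family. The part of replicate 4's mixed sex-linked RNA in these differences was not tested.

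Pairs of libraries differed about equally. Replicates 2 and 3 differed by 1.5-fold or more in 89 of 10904 genes (0.816%), replicates 2 and 4 in 99 (0.908%) and replicates 3 and 4 in 80 (0.734%). Of the 196 genes with a 1.5-fold range over the 3 libraries, 107 were highest in replicate 2, 57 in replicate 3 and 32 in replicate 4. Over all 10904 genes these libraries were the highest in 37.4%, 37.1% and 25.5%. The lowest library was replicate 2 in 38 of the 196, replicate 3 in 64 and replicate 4 in 94. Over all 10904 genes they were the lowest in 35.6%, 30.6% and 33.8%. Low counts made up much of the set, as 142 of the 196 averaged under 300 counts.

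With clone-named genes left out, the widest ranges belonged to Eif2s3y, Ddx3y and Kdm5d, given above. Next was Pagr1a, at 1.58, 1.64 and 18.1 CPM, high in replicate 4 alone. Mertk, a receptor by which macrophages engulf dying cells, was at 7.09, 6.29 and 3.00 CPM, low in replicate 4 alone. Gt(ROSA)26Sor was at 16.5, 6.70 and 10.7 CPM. Several structural RNAs were high in replicate 3. Rn7s1 and Rn7s2, copies of the signal recognition particle RNA with identical counts, were each at 8.95, 25.7 and 5.49 CPM, and Rn7sk, which restrains transcription elongation, was at 5.62, 12.2 and 4.78 CPM. Rn18s-rs5, which is annotated as ribosomal RNA, was at 1698, 3452 and 1679 CPM. Lars2 is annotated as protein-coding (a mitochondrial tRNA synthetase) and not as a structural RNA. It followed the same order, at 320.4, 732 and 339.9 CPM. In each of these genes replicate 3 was the highest library. Whether the reads counted to Lars2 came from the synthetase mRNA was not tested.

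Of the 13 mitochondrially encoded genes, 6 had a range of 1.5-fold or more when counted alone (1.8% of all genes), and several of these ranges narrowed when near-identical copies were added. In the mouse reference genome a stretch of nuclear DNA on chromosome 1 carries copies of mitochondrial genes, annotated as pseudogenes. The copy of mt-Co2, Gm28661, was 100% identical to it over 681 bases. Counted alone, mt-Co2 was at 10.1, 90.9 and 29.3 CPM, an 8.95-fold range. With its copy it was at 3223, 2777 and 3445 CPM, a 1.24-fold range, and 98.6% of the sum lay in the copy. mt-Co3 alone was at 119.7, 142 and 230.0 CPM and with its copy Gm28437 at 3217, 2826 and 3484 CPM. mt-Atp6 alone was at 387, 295 and 476 CPM and with its copy Gm10925 at 2571, 2152 and 2761 CPM. For mt-Nd3, whose copy was 99.7% identical, the range fell from 4.57-fold to 1.53-fold. Ranks of these genes taken alone therefore do not give their abundance. Over the 13 protein-coding genes and 6 copies the sum was 28104, 24237 and 29635 CPM, of which 34.2% was counted to the copies. Replicate 3 was the lowest library in that sum. The mitochondrial transcripts had a median GC content of 37.1%, against 49.1% over all genes, and replicate 3 was low in GC-poor transcripts in general. The part of GC content in this order was not tested. mt-Atp8 had a 2.03-fold range, at 294, 145 and 293 CPM. No copy of it was found, but the search took only annotated pseudogenes above a CPM minimum and dropped short matches. Whether its reads were divided with other loci was not tested.

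**Figure D5:**
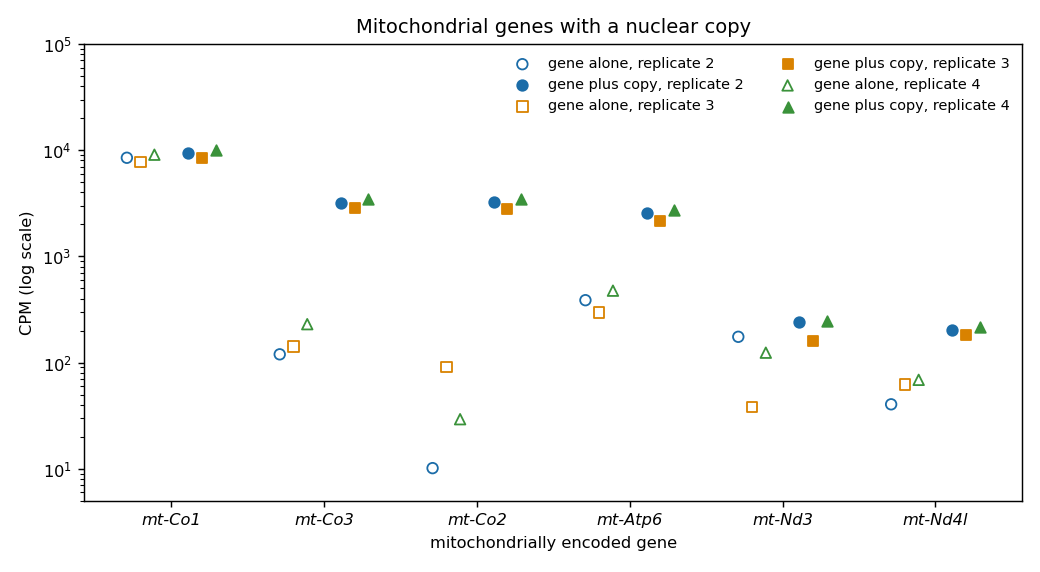
CPM (log scale) of 6 mitochondrially encoded genes counted alone (open symbols) and summed with a near-identical nuclear copy (filled symbols), 1 symbol per replicate. The mt-Co2 libraries lie apart when it is counted alone and within 1.24-fold with its copy.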

How the data were processed

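The deposited table gave whole-number counts for 50643 genes, made by the authors with bcl2fastq, Trim Galore 0.4.1, Bowtie2 2.2.8 and RSEM 1.3.0 on GRCm38, per the submitters' processing notes. RSEM estimates need not be whole, and neither the way they became whole nor the annotation release is given in the sources used here. Counts of 3 libraries were divided by column totals (18326988 to 19684827) to give CPM. Levels of different genes were compared per kb of exon union (GENCODE lengths for 50338 genes, none for 305). For 58 duplicated symbols the row with the most counts was used. No group was compared and no p-value was computed. A list was described by counts and medians. A spread was a ratio of highest to lowest CPM of 1.5 or more at 100 counts or more on average. edgeR 4.0.16 (R 4.3.3) gave the common biological CV and alternative scalings, and blastn 2.17.0 matched mitochondrial genes to their copies. The spread script was tested on simulated data. With 3 libraries, an SD is itself imprecise, and it covers only the spread between these libraries, which may be technical.

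The genes and lists were chosen with earlier results of these data known. Genes were named by a rule: for each list up to 8 members with the highest mean CPM, every Klr, Gzm and S1pr gene, defining markers at 0, the 30 highest by CPM, the 15 highest per kb, the 12 widest ranges and the sex-linked genes, leaving out clone-named genes and variable segments. Other named genes, such as Cd3e, Cd4, Cd8a, Cd27, Foxp3, Tbx21, Runx3, Il2ra, Ppia, Polr2a and Pgk1, were chosen after their values were seen. So were the 4 sub-lists (globins, erythroid without globins, dendritic without class II genes, T cell without receptor constant genes), the sums with mitochondrial copies, the GC quintiles, the 19 ratios per kb of which some are printed, the counts of highest and lowest libraries, and the promoter search with its 6 motifs and 2 windows. The plot of list sums was first drawn in CPM and then changed to CPM per kb. The alternatives were other scalings, count minimums, folds, length scales and leaving out each library. Values of some listed genes are not reported here.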

Additional observations from a re-analysis of the deposited data

How the results depend on the processing

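No paired analysis was possible because only 1 group was described and its results come from no test. The number of genes with a 1.5-fold range was the value that moved most. It was 196 as reported, 1230 with a minimum of 20 counts on average, 5677 with no filter on low counts and 27 at 2-fold. Leaving out 1 library gave 80 to 98 genes, with fewer libraries to range over by construction. The number of genes holding 50% of the counts was 1018, and 341 by CPM per kb of exon union. The other scalings, and leaving out haemoglobin and mitochondrial transcripts, kept the range count within 1.5 times. Leaving out 1 library, or haemoglobin and mitochondrial transcripts, gave 1008 to 1083 genes holding 50% of the counts. The 48 NK list members in the top 1000 were 49 to 58, and the NK-restricted sum 12906 to 13816 CPM (within 1 SD), under the alternatives run for each. Leaving out each library in turn, an alternative added after seeing the data, moved 11 list sums by at most 1.09-fold. The moves lay within 1 SD in 33 of 33 cases, but with 3 libraries this holds by construction. It therefore says nothing about how stable the sums are. The same is true of the NK-restricted sum where a library was left out. The order of the NK-restricted and erythroid sums depends on the scale: 13375 against 13236 in CPM, and 8108 against 16768 in CPM per kb. Depth limits genes near the floor of 3 counts over the group (0.0521 CPM), which covers counting error only.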
